A study of Mus musculus with 9 samples.

Results

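The heat shock proteins and their co-chaperones were followed in whole mouse kidney across 9 RNA-seq libraries. Members were taken by gene symbol: the Hspa, Hspb, Hspd1, Hspe1, Hsph1 and Hsp90 genes, the Dnaja, Dnajb and Dnajc genes, and Bag1 to Bag6. This gave 76 genes of the 52160 analysed, namely 14 HSP70 and HSP110 genes, 3 HSP90 genes, 2 chaperonin genes, 8 small heat shock protein genes, 43 J protein genes and 6 BAG genes. All of them were present in both deposited count tables. The libraries fell into 3 groups of 3, all on a C57Bl/6N background, and the mice were 16 weeks old. In ΔPod mice, Ybx1 had been deleted from podocytes, the filtration cells of the glomerulus. In K2A mice, podocytes carried a Ybx1 mutant with the K299A and K302A substitutions in exon 7, which per the labels lacks the lysines needed for acetylation-dependent secretion. WT mice carried neither allele and came from a commercial supplier. The labels name no Cre driver, no sex and no source for the mutant mice. Nothing in them ties a library to an animal of its own, and p-values here measure only how these samples spread, which may be technical.

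Chaperones bind unfolded or newly made proteins and help them reach or keep their shape. HSP70 proteins do this in cycles of ATP hydrolysis: J proteins bring the client and trigger hydrolysis, and exchange factors such as the HSP110 and BAG proteins release it again. HSP90 takes over late-folding clients, including steroid receptors and kinases, chaperonins fold proteins inside a closed chamber, and small heat shock proteins hold unfolded proteins without ATP. The transcription factor HSF1 raises many of these genes under heat and other protein stress, through heat shock elements made of inverted GAA repeats. Ybx1 itself is a cold shock protein that binds RNA and DNA.

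Total counts ran between 30776806 and 46852490 per library. Ybx1 was measured at 1167, 881 and 605 CPM in ΔPod, 1078, 1152 and 554 in K2A and 1190, 1585 and 1185 in WT, and its fold change did not pass the test in either mutant, with edgeR adjusted p of 0.465 in ΔPod and 0.725 in K2A. CPM are counts scaled to a common library size by TMM. Whole kidney holds few podocytes, and counts per gene do not show the K2A substitutions, so this checks the labels little. The kidney tubule and podocyte markers were detected in every library. Xist was at 17.0 to 331 CPM in the mutants and at 0 in all WT libraries, while 4 Y-linked genes summed to at most 0.682 CPM in the mutants and to 94.4 to 119 CPM in WT, so genotype and sex cannot be told apart in any comparison with WT. The libraries also differed in how counts depended on transcript length. Long genes had relatively more counts in ΔPod 3, K2A 3, WT 1 and WT 3, called the long-transcript libraries here. Short genes had more in ΔPod 1, ΔPod 2, K2A 1, K2A 2 and WT 2, the short-transcript libraries. Cytosolic ribosomal protein genes took 2.11% to 7.02% of counts in the 5 short-transcript libraries and 0.869% to 1.01% in the 4 long-transcript ones. In bulk tissue, fewer cells of a type and less RNA per cell cannot be told apart.

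The 76 genes together took 0.704%, 0.750% and 0.824% of all counts in ΔPod, 0.663%, 0.718% and 0.776% in K2A, and 0.889%, 0.899% and 1.06% in WT. All 6 mutant libraries lay below all 3 WT libraries. The means were 0.759% ± 0.0605 in ΔPod, 0.719% ± 0.0566 in K2A and 0.950% ± 0.0963 in WT (SD, n = 3 each). Without Hsp90ab1, the member with the highest level in WT, the shares were 0.645% to 0.700% in ΔPod, 0.576% to 0.668% in K2A and 0.735% to 0.868% in WT, still without overlap. Their summed CPM did not overlap either, at 6779 to 8434 in ΔPod, 6322 to 7487 in K2A and 9149 to 10801 in WT. In each group the long-transcript libraries included the highest share. The 11 kidney tubule markers also had lower sums in the mutants within each kind of library: 15260 CPM in ΔPod 3 and 12512 in K2A 3, against 19288 and 17898 in WT 1 and WT 3, and 3343 to 6612 CPM in the 4 short-transcript mutant libraries, against 9699 in WT 2. In the long-transcript libraries the markers did not all go the same way. The lower sums in these libraries rested largely on Slc34a1. Slc34a1 was at 5902 CPM in ΔPod 3 and 2459 in K2A 3, against 8724 and 8657 in WT 1 and WT 3. Slc12a3 went the other way, at 1202 CPM in ΔPod 3 and 1075 in K2A 3, against 638 and 630 in WT 1 and WT 3. Lrp2 was below both WT libraries in ΔPod 3, at 1451 CPM, and above both in K2A 3, at 1684 CPM. It was at 1583 and 1549 CPM in WT 1 and WT 3. The part of the tubule in the chaperone share was not tested. Hsp90ab1, Hspa8, Hspa5, Hspa9 and Hsp90b1 together made up between 27.1% of the members' counts in ΔPod 1 and 53.0% in WT 3.

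**Figure D1:**
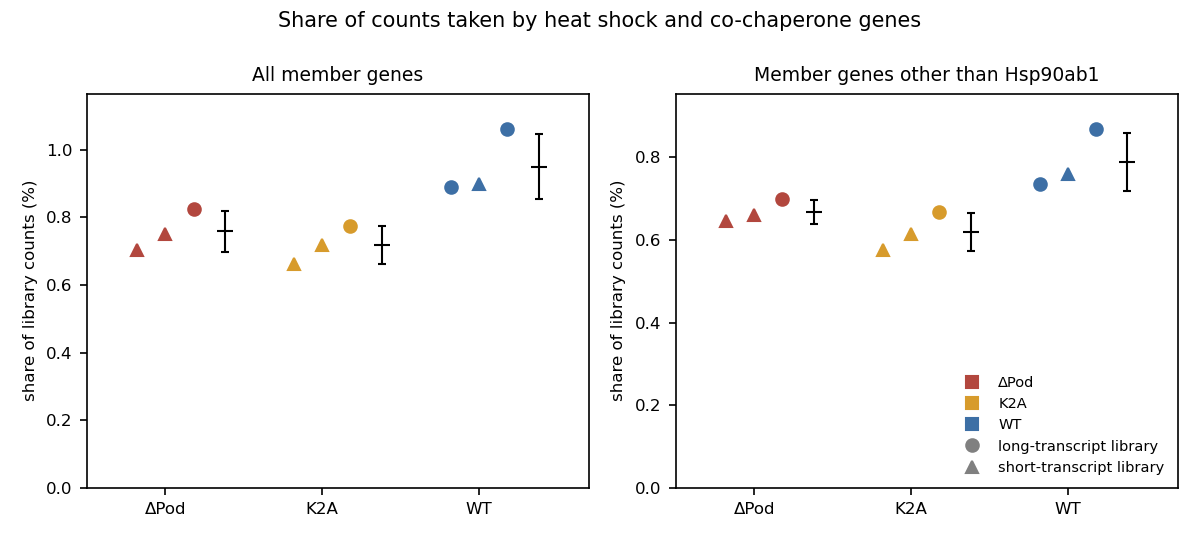
Share of each library's counts (%, vertical axis) taken by the 76 chaperone genes (left) and by those other than Hsp90ab1 (right), by group. Each point is a library, circles are long-transcript and triangles short-transcript libraries, and bars are the mean ± SD (n = 3). The 6 mutant libraries sit between 0.663% and 0.824% on the left, below the WT libraries at 0.889% to 1.06%.

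Per gene, 70 of the 76 members had enough counts to be tested, and none passed an adjusted p of 0.05 in any comparison with edgeR's quasi-likelihood test. Among all tested genes 0.985% passed in ΔPod against WT, 0.847% in K2A against WT and 0.0% in K2A against ΔPod. The smallest adjusted p of a member was 0.151 in ΔPod and 0.229 in K2A, both against WT. At an unadjusted p under 0.05 there were 11 members in ΔPod, or 15.7%, and 8 in K2A, or 11.4%. This is near the background of 13.8% and 10.6% of all genes. These were mostly on the low side: 7 of the 11 in ΔPod and 7 of the 8 in K2A had lower levels than WT, where the background was 4.57% and 3.61% of all genes. The 7 low ones were Dnaja1, Dnaja4, Dnajb11, Dnajc2, Hsp90ab1, Hspa8 and Hsph1 in ΔPod, and Dnaja1, Dnaja4, Dnajb11, Dnajc2, Dnajc22, Hsp90aa1 and Hsp90ab1 in K2A. With DESeq2, 2 members passed in ΔPod (Dnaja1 and Dnaja4) and 3 in K2A (Dnaja1, Dnaja4 and Dnajb11), all lower than WT, beside 3.66% and 3.57% of all genes. DESeq2 called 0 in K2A against ΔPod, where 2 members had an unadjusted edgeR p under 0.05 and DESeq2 called 0.0778% of all genes.

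In both mutants more of the members' fold changes were below 0 than above it. In ΔPod 46 of 70 log2 fold changes were below 0, with a median of -0.26, and over all genes 46.6% were below 0 with a median of 0.08. In K2A 42 of 70 were below 0, with a median of -0.20, beside 44.4% and 0.09 over all genes. Both comparisons share the WT libraries, so they are not independent of each other. The ΔPod median depended on a library, and was -0.58 without ΔPod 3. In ΔPod 13 members had every library below every WT library, beside 9.47% of all genes, and 2 had every library above, beside 8.73%. In K2A 18 members were wholly below WT, beside 9.18% of all genes, and 4 wholly above, beside 11.0%. All 6 mutant libraries lay below all WT libraries for 10 members, beside 5.86% of all genes: Dnaja1, Dnaja2, Dnaja3, Dnaja4, Dnajb2, Dnajb6, Dnajb11, Dnajc2, Dnajc30 and Hsp90ab1. The opposite held for Bag4 and Dnajc27, 2 members beside 5.2% of all genes.

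**Figure D2:**
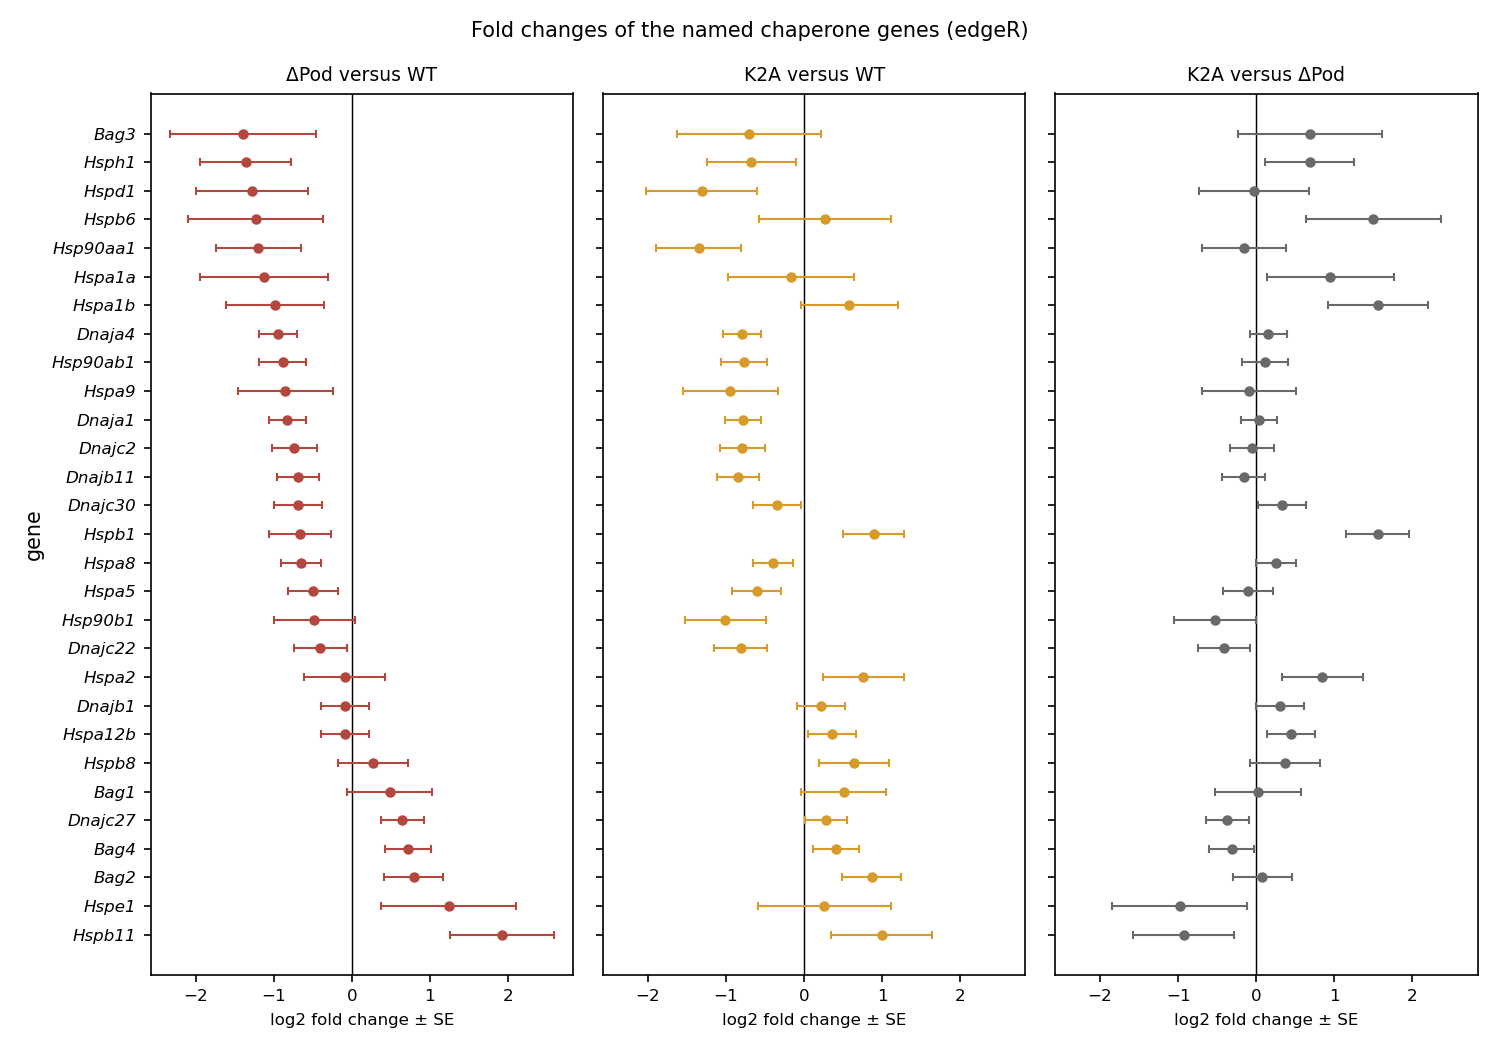
Log2 fold change ± SE (horizontal axis, edgeR, 3 libraries per group) of the 29 named chaperone genes in ΔPod against WT, K2A against WT and K2A against ΔPod, in the order of the ΔPod fold change. Dnaja4, Hsp90ab1 and Dnaja1 lie between -0.95 and -0.77 against WT in both mutants with short error bars, and Hspa1b and Hspb1 are at 1.56 in K2A against ΔPod.

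HSP90 is the chaperone of kinases and steroid receptors, and its 3 genes all had fold changes below 0 in both mutants. Over all genes 46.6% were below 0 in ΔPod and 44.4% in K2A. The constitutive cytosolic form, Hsp90ab1 (chr17:45567775-45573271, minus strand, mm10), had the highest level per kilobase of exon of all members, 391 CPM per kb on average. It was measured at 706, 811 and 1169 CPM in ΔPod, 828, 1041 and 1043 in K2A and 1587, 1410 and 1964 in WT. No mutant library reached the lowest WT library. The log2 fold change was -0.88 (SE 0.30, adjusted p 0.278) in ΔPod and -0.77 (SE 0.30, adjusted p 0.38) in K2A.

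Hsp90aa1, the heat-inducible cytosolic form, was at 54.0, 91.8 and 189 CPM in ΔPod, 62.1, 75.7 and 163 in K2A and 243, 188 and 336 in WT. ΔPod 3 and WT 2 met at the boundary, and K2A lay wholly below WT. The log2 fold change was -1.20 (SE 0.54, adjusted p 0.373) in ΔPod and -1.35 (SE 0.55, adjusted p 0.409) in K2A. Hsp90b1, the form of the endoplasmic reticulum, ran at 146, 273 and 593 CPM in ΔPod, 174, 181 and 348 in K2A and 432, 396 and 582 in WT. Its ΔPod libraries spanned the WT range, because ΔPod 3 was above every WT library, and its K2A libraries were all below WT.

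**Figure D3:**
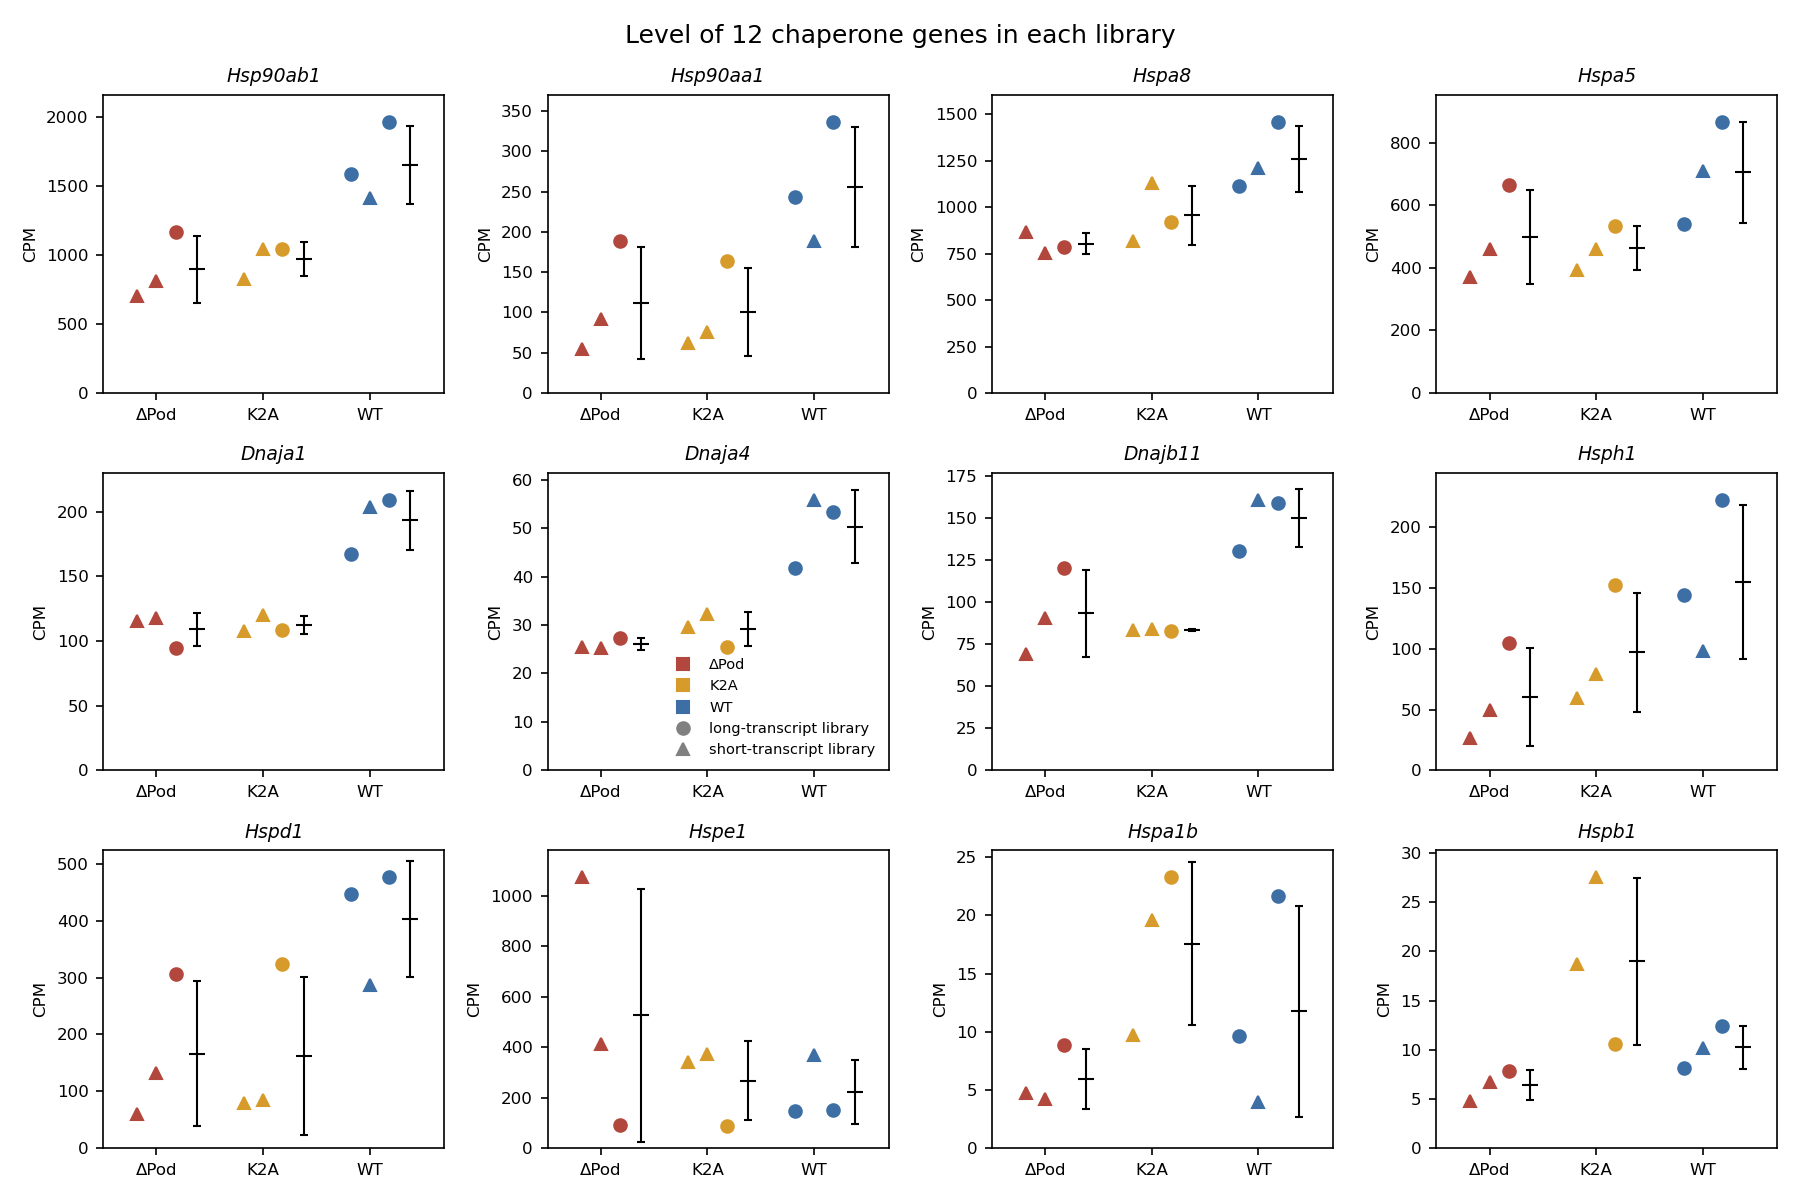
CPM (vertical axis, linear, from 0) of 12 chaperone genes in each library, by group, with the mean ± SD (n = 3). Circles are long-transcript and triangles short-transcript libraries. Dnaja1 and Dnaja4 separate the mutants from WT whatever the symbol, Hspd1 and Hspe1 order the libraries by symbol in opposite directions, and Hspb1 is highest in K2A 1 and K2A 2, at 18.8 and 27.6 CPM.

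Among the HSP70 genes the constitutive cytosolic form Hspa8, which keeps most housekeeping clients folded, was at 865, 756 and 787 CPM in ΔPod, 819, 1132 and 921 in K2A and 1115, 1209 and 1459 in WT. ΔPod lay wholly below WT, with a log2 fold change of -0.65 (SE 0.26, adjusted p 0.339). K2A overlapped WT through K2A 2, and its value was -0.40 (SE 0.26, adjusted p 0.686). The heat-inducible pair Hspa1a and Hspa1b, which most cells keep low until stressed, was low here too. Hspa1a was at 1.81, 2.34 and 8.59 CPM in ΔPod, 4.12, 6.14 and 14.4 in K2A and 7.65, 2.98 and 17.2 in WT. Hspa1b was at 4.70, 4.24 and 8.87 CPM in ΔPod, 9.73, 19.7 and 23.3 in K2A and 9.65, 3.92 and 21.7 in WT. WT 2 was as low as ΔPod, so both genes overlapped between each mutant and WT. The transcripts of Hspa1a and Hspa1b share 58.8% and 62.3% of their 50-base stretches, so the split of counts between the 2 genes is uncertain. Their sum was 6.51, 6.59 and 17.5 CPM in ΔPod, 13.9, 25.8 and 37.8 in K2A and 17.3, 6.90 and 38.8 in WT.

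HSP110 proteins reset HSP70 by exchanging its nucleotide, and all 3 of their genes were below 0 in both mutants, beside 46.6% and 44.4% of all genes. Hsph1, the most heat-responsive of them, was at 26.8, 49.4 and 105 CPM in ΔPod, 59.6, 79.2 and 153 in K2A and 144, 98.2 and 223 in WT. Each group spread widely, and ΔPod 3 was above WT 2. The log2 fold change was -1.36 (SE 0.58, adjusted p 0.356) in ΔPod and -0.67 (SE 0.57, adjusted p 0.755) in K2A. Of the 14 members that textbooks give as HSF1-inducible, 12 had a fold change below 0 in ΔPod, with a median of -0.85, beside 46.6% of all genes. In K2A 9 did, with a median of -0.49, beside 44.4% of all genes. None of the 14 passed the edgeR test. Their summed CPM ran between 2445 and 3103 in the 6 mutant libraries and between 3914 and 5095 in WT, and Hsp90ab1 and Hspa8 carried most of that sum. Without Hsp90ab1 and Hspa8 the sums overlapped, since that of ΔPod 1 was above those of WT 1 and WT 2. Hspe1 was at 1075 CPM in ΔPod 1. Dnajb4 and Hspe1 were above 0 in both mutants, and Dnajb1, an HSP70 partner that heat induces strongly, was near 0. Dnajb1 was at 70.7, 61.7 and 42.1 CPM in ΔPod, 71.8, 87.2 and 56.9 in K2A and 50.2, 58.0 and 77.3 in WT, with overlap in both comparisons. The immediate early genes, which respond within minutes of handling or stress, summed to 155, 285 and 1615 CPM in ΔPod, 270, 309 and 562 in K2A and 386, 301 and 351 in WT. They were highest in ΔPod 3. Hspa1a, Hspa1b and Hsph1 were higher there than in the other ΔPod libraries, while Dnajb1, Dnaja1 and Hspe1 were lower. ΔPod 3 was also the only long-transcript library of its group. The part of the immediate early genes in the chaperone levels was not tested.

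J proteins deliver clients to HSP70, and the 4 type A genes all lay wholly below WT in both mutants. Of all genes 5.86% did so. Dnaja1, a cytosolic partner of Hspa8, was at 115, 118 and 94.4 CPM in ΔPod, 108, 120 and 109 in K2A and 167, 203 and 209 in WT. The highest mutant library was well under the lowest WT library, and the log2 fold change was -0.82 (SE 0.23, adjusted p 0.205) in ΔPod and -0.78 (SE 0.23, adjusted p 0.229) in K2A. Dnaja4, also cytosolic, was at 25.5, 25.3 and 27.4 CPM in ΔPod, 29.5, 32.4 and 25.4 in K2A and 41.8, 55.9 and 53.2 in WT. Its log2 fold change was -0.95 (SE 0.24, adjusted p 0.151) in ΔPod and -0.79 (SE 0.24, adjusted p 0.241) in K2A. With DESeq2 the adjusted p for Dnaja1 was 0.00936 in ΔPod and 0.00824 in K2A, and for Dnaja4 it was 0.00131 and 0.00702, so that these 2 genes pass or fail with the choice of tool. Over all alternatives that were run, the log2 fold change of Dnaja1 stayed between -0.98 and -0.77 in ΔPod and between -0.91 and -0.71 in K2A, with adjusted p between 0.00069 and 0.693. That of Dnaja4 stayed between -1.19 and -0.78 in ΔPod and between -0.94 and -0.72 in K2A, with adjusted p between 0.00131 and 0.697. The exons of Dnaja1 overlap those of Smu1 on the opposite strand, and those of Dnaja4 overlap Wdr61 on the opposite strand. Those of Dnaja3 overlap Vasn on the same strand. In all, 29 of the 76 members have exons that overlap another gene, among them Hsp90b1, Hspb6 and Dnajc30, so their counts are uncertain too. The gaps were smaller for the others: Dnaja2, cytosolic, was at 154 to 173 CPM in the mutants and 173 to 177 CPM in WT, nearly touching, and Dnaja3, in the mitochondrion, was at 131 to 156 CPM in the mutants and 161 to 174 CPM in WT.

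Because Dnaja1 and Dnaja4 were low together in both mutants, their promoter windows are shown, 250 bases before to 50 after the start, from RefSeq on GRCm38.p6. Capitals mark GAANNTTC, a pair of heat shock units facing each other, which reads the same on both strands. For Dnaja1 the window is chr4:40722218-40722517, plus strand, and for Dnaja4 chr9:54699309-54699608, plus strand.
Dnaja1: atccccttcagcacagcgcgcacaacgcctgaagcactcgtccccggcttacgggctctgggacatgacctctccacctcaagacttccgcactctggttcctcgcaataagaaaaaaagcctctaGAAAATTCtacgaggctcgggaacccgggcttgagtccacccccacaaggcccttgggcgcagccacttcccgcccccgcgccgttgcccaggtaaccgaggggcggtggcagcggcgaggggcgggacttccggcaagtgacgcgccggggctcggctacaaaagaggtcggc
Dnaja4: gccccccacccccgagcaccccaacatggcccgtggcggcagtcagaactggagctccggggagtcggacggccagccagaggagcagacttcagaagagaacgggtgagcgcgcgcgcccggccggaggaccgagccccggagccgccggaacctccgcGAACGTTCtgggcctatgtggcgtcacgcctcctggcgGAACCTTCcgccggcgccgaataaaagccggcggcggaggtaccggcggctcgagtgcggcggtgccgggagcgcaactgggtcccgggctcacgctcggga
The Dnaja1 window holds the motif at 124 bases before the start, and the Dnaja4 window at 90 and at 52 bases before it. Of the members, 62 matched the RefSeq table, with 80 windows because some genes have several starts. GAANNTTC was in 20.0% of the members' windows and in 7.86% of all 32851 windows, and TTCNNGAA, the pair in the other order, was in 10% and 8.52%. These are matches of letters and show no binding.

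The type B J proteins were less even, with 7 of 10 tested genes below 0 in ΔPod and 6 of 10 in K2A, beside 46.6% and 44.4% of all genes. Dnajb6, which keeps proteins from aggregating, was at 22.5, 21.5 and 19.7 CPM in ΔPod, 16.4, 17.2 and 21.7 in K2A and 24.3, 26.3 and 26.0 in WT. Dnajb2 was likewise wholly below WT in both mutants, with values of 30.1 to 42.1 CPM in ΔPod, 41.8 to 46.3 in K2A and 47.7 to 53.5 in WT. Of the 26 type C genes, a mixed family that shares little beyond the J domain, 15 were below 0 in ΔPod and 16 in K2A, beside the same shares of all genes. Dnajc2, which sits on the ribosome and receives emerging chains, was at 20.0, 25.6 and 33.0 CPM in ΔPod, 23.2, 21.0 and 31.5 in K2A and 41.0, 46.1 and 43.8 in WT. Its mutant libraries stayed below WT, with a log2 fold change of -0.74 (SE 0.29, adjusted p 0.333) in ΔPod and -0.79 (SE 0.29, adjusted p 0.341) in K2A. Dnajc30, a mitochondrial protein, was at 19.4, 32.3 and 41.4 CPM in ΔPod, 39.8, 39.6 and 38 in K2A and 54.0, 49.9 and 45.6 in WT. Dnajc22 was at 123, 88.6 and 69.2 CPM in ΔPod, 81.8, 79.5 and 49.6 in K2A and 100, 158 and 113 in WT, so that only K2A lay wholly below WT. Dnajc27, a small GTPase with a J domain, went the other way at a low level, with 4.16, 4.43 and 6.37 CPM in ΔPod, 4.12, 3.56 and 3.92 in K2A and 3.02, 3.44 and 3.09 in WT.

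In the endoplasmic reticulum, where secreted and membrane proteins fold, 6 of the 8 listed members were below 0 in each mutant, beside 46.6% and 44.4% of all genes. Hspa5, the HSP70 of this compartment and the sensor partner of the unfolded protein response, was at 371, 459 and 666 CPM in ΔPod, 392, 461 and 534 in K2A and 541, 708 and 866 in WT. K2A lay wholly below WT by a narrow margin, with a log2 fold change of -0.61 (SE 0.32, adjusted p 0.58). ΔPod overlapped WT through ΔPod 3, at -0.50 (SE 0.32, adjusted p 0.458). Dnajb11, its J protein partner, was at 69.0, 90.5 and 121 CPM in ΔPod, 83.5, 84.1 and 82.9 in K2A and 131, 161 and 159 in WT. The 3 K2A libraries were nearly equal, and the log2 fold change was -0.85 (SE 0.27) in K2A, with an adjusted p of 0.265 in edgeR and 0.0411 in DESeq2. In ΔPod it was -0.69 (SE 0.27, adjusted p 0.337). Dnajb9, another J protein of this compartment, differed from these, with 153, 104 and 41.9 CPM in ΔPod, 89.5, 109 and 75.9 in K2A and 55.0, 88.9 and 75.5 in WT.

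The promoter window of Hspa5 is shown because this gene is the textbook case of the endoplasmic reticulum stress element. It lies at chr2:34771840-34772139, plus strand, GRCm38.p6, and capitals mark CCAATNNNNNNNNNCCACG, searched on both strands.
Hspa5: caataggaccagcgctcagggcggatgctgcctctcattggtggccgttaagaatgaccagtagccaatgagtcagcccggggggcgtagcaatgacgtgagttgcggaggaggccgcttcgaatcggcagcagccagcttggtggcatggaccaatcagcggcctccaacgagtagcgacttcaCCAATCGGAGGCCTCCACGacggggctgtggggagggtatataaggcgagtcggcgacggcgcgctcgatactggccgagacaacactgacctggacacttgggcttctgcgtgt
The element was found in the windows of 3 members, Hspa5, Hsp90b1 and Dnajc3, which is 3.75% of the members' windows and 0.119% of all windows. Dnajc3, an inhibitor of the stress kinase PERK, was at 114, 168 and 223 CPM in ΔPod, 119, 121 and 208 in K2A and 209, 189 and 235 in WT. All 3 of these genes were higher in ΔPod 3 and K2A 3 than in the other mutant libraries.

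In the mitochondrion Hspd1 and Hspe1 encode the chaperonin chamber and its lid, and they are transcribed away from each other out of a shared promoter. Their counts went in opposite directions between the kinds of library. Among the long-transcript libraries both were below WT, with log2 ratios of -0.59 for Hspd1 and -0.69 for Hspe1 in ΔPod. In K2A these were -0.52 and -0.78. Hspd1 was at 58.9, 132 and 307 CPM in ΔPod, 79.5, 85.1 and 323 in K2A and 447, 287 and 477 in WT. Hspe1 was at 1075, 411 and 92.0 CPM in ΔPod, 340, 373 and 86.2 in K2A and 146, 370 and 152 in WT. The ratio of Hspe1 to Hspd1 was therefore 18.2, 3.11 and 0.300 in ΔPod, 4.28, 4.39 and 0.267 in K2A and 0.327, 1.29 and 0.318 in WT. It was between 1.29 and 18.2 in the 5 short-transcript libraries and between 0.267 and 0.327 in the 4 long-transcript ones, with all 3 groups in each kind. Hspd1 has 2642 bases of exon and Hspe1 has 1474. Hspa9, the mitochondrial HSP70, followed Hspd1, with 194, 338 and 739 CPM in ΔPod, 225, 229 and 739 in K2A and 845, 589 and 859 in WT.

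The paired genes went in opposite directions between the kinds of library, although the segment between them is the same. Their shared promoter is shown from the Hspd1 side at chr1:55087883-55088182, minus strand, GRCm38.p6. The Hspe1 window, chr1:55087898-55088197 on the plus strand, shares 285 of its 300 bases with it, and the gene bodies overlap by 112 bases on opposite strands. Capitals mark a run of overlapping heat shock units, in which GAANNTTCNNGAA or its reverse complement was found.
Hspd1: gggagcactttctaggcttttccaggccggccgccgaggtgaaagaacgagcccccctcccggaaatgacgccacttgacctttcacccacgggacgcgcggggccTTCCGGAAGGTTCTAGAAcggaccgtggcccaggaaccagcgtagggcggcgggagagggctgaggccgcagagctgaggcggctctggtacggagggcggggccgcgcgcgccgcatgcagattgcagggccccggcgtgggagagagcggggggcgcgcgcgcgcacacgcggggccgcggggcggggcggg
The pair motifs begin at 144, 139 and 134 bases before the Hspd1 start. GAANNTTCNNGAA, on either strand, was in the windows of 4 members, Hspd1, Hspe1, Hsph1 and Dnajb6, which is 7.5% of the members' windows and 0.603% of all windows. These were 6 of the 80 windows, and the run that Hspd1 and Hspe1 share was counted for both genes. The motif contains GAANNTTC and TTCNNGAA, so these counts overlap.

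Small heat shock proteins hold unfolded clients and, in muscle, bind the cytoskeleton. Of the 6 tested, 2 were below 0 in ΔPod and 0 in K2A, with medians of 0.35 and 0.77. Read within each kind of library, not all stayed above WT in K2A. Hspb2 and Hspb8 had log2 ratios of -0.31 and -0.13 among the long-transcript libraries. Hspb6 and Hspb7 had -0.80 and -0.13 among the short-transcript ones, while Hspb1 and Hspb11 were above 0 in both kinds. Hspb1, an actin-associated member found in many tissues, was at 4.77, 6.75 and 7.80 CPM in ΔPod, 18.8, 27.6 and 10.6 in K2A and 8.10, 10.2 and 12.4 in WT. ΔPod lay below WT, with a log2 fold change of -0.66 (SE 0.39, adjusted p 0.432), and K2A overlapped WT through K2A 3, at 0.89 (SE 0.39, adjusted p 0.476). K2A 1 and K2A 2 also had high sums over the 8 fat cell markers, with 458 and 1196 CPM, beside 43.2 CPM in K2A 3, 23.1 to 531 CPM in ΔPod and 31.8 to 79.7 CPM in WT. The 6 urothelium markers summed to 55.3 and 67.0 CPM in the same libraries, beside 7.57 CPM in K2A 3, 0.645 to 44.4 CPM in ΔPod and 5.66 to 10.1 CPM in WT. ΔPod 1 was high in both sums and had the lowest Hspb1, and the part of these cells in the Hspb1 level was not tested. Hspb6, known from smooth and heart muscle, was at 0.651, 3.12 and 5.36 CPM in ΔPod, 3.04, 3.56 and 19.4 in K2A and 8.90, 6.10 and 6.57 in WT. K2A 3 alone carried the K2A mean, and muscle markers did not all go one way there. The 10 skeletal and heart muscle markers had their highest sum in K2A 3, 7.07 CPM beside 0.315 to 2.20 CPM elsewhere, of which Myh1, a skeletal muscle myosin, was 6.22 CPM. The 7 smooth muscle markers had their lowest sum there, 96.5 CPM beside 111 to 358 CPM elsewhere. The smooth muscle myosin Myh11 followed the length class, at 17.4 to 28.8 CPM in the long-transcript libraries and 2.10 to 5.55 CPM in the short-transcript ones. It was at 27.6 CPM in K2A 3 and 28.8 CPM in ΔPod 3. The part of muscle cells in the Hspb6 level was not tested. Hspb11, which works in ciliary transport, was at 38, 19.7 and 6.25 CPM in ΔPod, 13.5, 14.9 and 5.13 in K2A and 4.63, 7.62 and 4.55 in WT, high in the short-transcript libraries of the mutants. Hspb2 shares exon bases with Cryab on the opposite strand, so its counts are uncertain.

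BAG proteins release clients from HSP70 and link it to degradation. Bag1, which couples HSP70 to the proteasome, was second to Hsp90ab1 per kilobase at 326 CPM per kb, averaged over all 9 libraries. In WT alone, and in the long-transcript libraries, Hspa8 was above Bag1 per kilobase. Bag1 was at 766, 463 and 218 CPM in ΔPod, 600, 658 and 212 in K2A and 311, 453 and 271 in WT, highest in the short-transcript libraries of every group. Bag3, which feeds selective autophagy together with Hspb8, had the reverse order, with 3.44, 9.66 and 32.3 CPM in ΔPod, 8.80, 11.3 and 53.4 in K2A and 43.1, 19.3 and 57.1 in WT. Bag2, an inhibitor of the ubiquitin ligase CHIP, was at 42.4, 33.4 and 16.3 CPM in ΔPod, 32.6, 34.7 and 30.0 in K2A and 14.5, 23.0 and 15.6 in WT. K2A was wholly above WT, with a log2 fold change of 0.87 (SE 0.38, adjusted p 0.465), and ΔPod overlapped WT. Bag4, a silencer of death receptor signalling, was at 103, 86.8 and 54.5 CPM in ΔPod, 71.8, 69.7 and 55.6 in K2A and 47.2, 51.6 and 49.3 in WT. All mutant libraries were above WT, by a small margin in ΔPod 3 and K2A 3.

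Between the mutants, 0 of 70 members passed the edgeR test, where 0.0% of all genes did, and 36 members had fold changes below 0, beside 51.2% of all genes, with a median of -0.03. Only Hspa1b and Hspb1 had an unadjusted p under 0.05, beside 2.01% of all genes, and both were wholly higher in K2A, beside 3.51% of all genes. The split of counts between Hspa1a and Hspa1b is uncertain, and their sum overlapped, at 17.5 CPM in ΔPod 3 and 13.9 in K2A 1. Hspb1 had a log2 fold change of 1.56 (SE 0.40, unadjusted p 0.00402, adjusted p 1), and Hspa1b one of 1.56 (SE 0.64, unadjusted p 0.0374, adjusted p 1). Dnajc27 was the member wholly lower in K2A, beside 1.61% of all genes, at -0.37 (SE 0.27). For the 10 genes wholly below WT in both mutants the K2A against ΔPod values ran between -0.21 (SE 0.23) for Dnajb6 and 0.34 (SE 0.31) for Dnajc30. They were 0.04 (SE 0.23) for Dnaja1, 0.16 (SE 0.24) for Dnaja4 and 0.12 (SE 0.30) for Hsp90ab1. Choosing genes that are low in both mutants favours small differences between them. With 3 libraries a group these values do not show that the mutants are alike.

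Many members followed the length class of the library, about as often as other genes did. In 22 members all 4 long-transcript libraries were above all 5 short-transcript ones, beside 26.6% of all genes, and in 17 the reverse held, beside 26.5%. The first set included Bag3, Hspa1a, Hspa9, Hspd1 and Hsph1, and the second Bag1, Hspb8, Hspb11 and Hspe1. Among the 11 members with under 2000 bases of exon, 10 had more counts in the short-transcript libraries, with a median log2 ratio of 1.19 beside 0.70 over all genes of that length. Among the 34 with 2000 to under 5000 bases 11 did, with a median of -0.25 beside 0.10, and among the 25 with at least 5000 bases 5 did, with a median of -0.70 beside -0.71. Some members departed from their length: Dnajc15, a mitochondrial import protein, has 6513 bases of exon and a ratio of 2.64, while Bag3 has 2562 bases and a ratio of -2.10. ΔPod 1, the library with the steepest slope on length, was the lowest library for 32 of the 70 members and the highest for 18. The largest spans between libraries were 29.8-fold for Hspb6, 19.1-fold for Dnajc15 and 17.4-fold for Dnajc16.

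**Figure D4:**
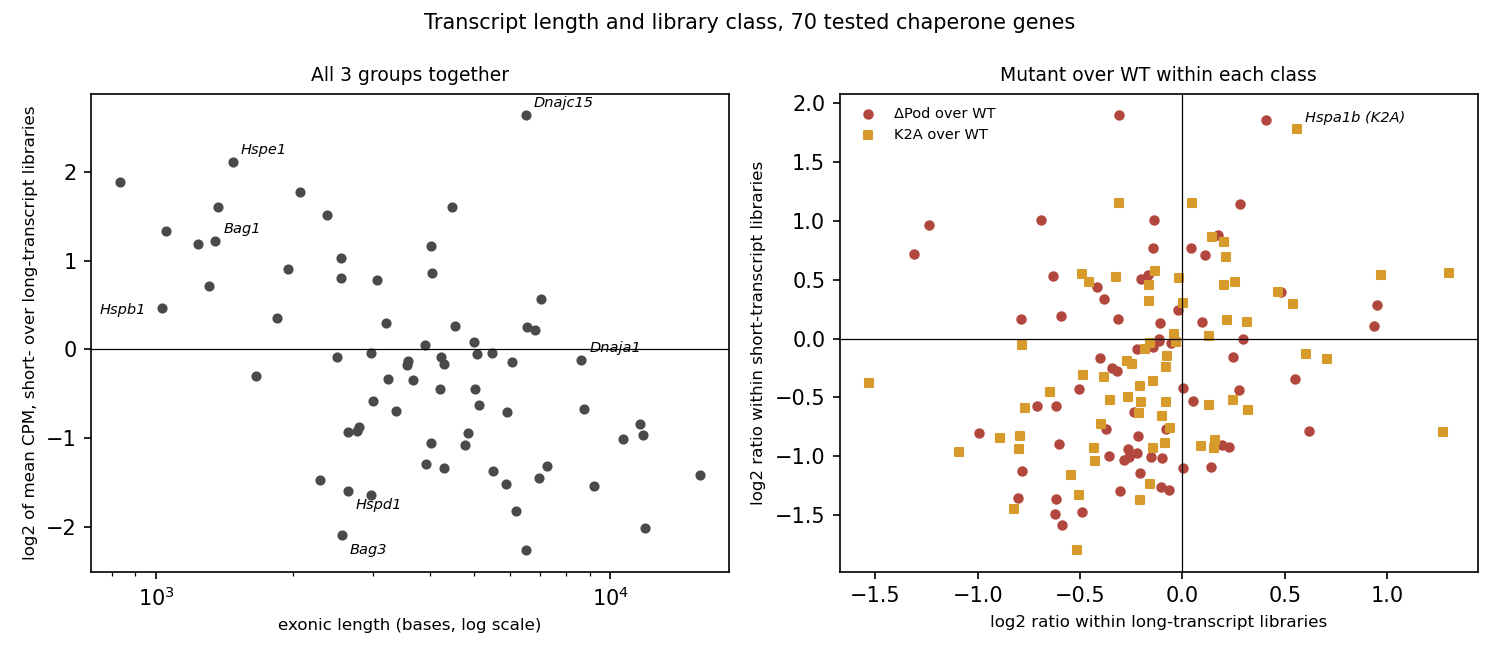
Left, log2 ratio of mean CPM in short- over long-transcript libraries (vertical axis) against exonic length in bases (horizontal axis, log scale) for the 70 tested chaperone genes. Right, log2 ratio of mutant over WT within the short-transcript libraries (vertical axis) against the same within the long-transcript libraries (horizontal axis), with 0.5 CPM added, ΔPod as circles and K2A as squares. On the left Hspe1 is at 2.11 and Hspd1 at -1.59, and on the right more points lie below and left of 0 than above and right of it.

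The comparison with WT was also read within each kind of library, where a lone library often stands for a group and these ratios have no test. A difference in length dependence remained within each kind. Among the short-transcript libraries the slope on length was -0.058 in WT 2 and -0.377 to -0.141 in the mutants. Among the long-transcript ones it was 0.201 and 0.237 in WT 1 and WT 3, 0.267 in ΔPod 3 and 0.295 in K2A 3. In ΔPod 50 of the 70 members were below WT among the long-transcript libraries and 45 among the short-transcript ones, with 34 in both, beside 50.2%, 49.4% and 27.0% of all genes. The members' medians were -0.20 and -0.31, and those over all genes 0.00 and 0.01. In K2A 46 and 46 were below, with 37 in both, beside 51.5%, 47.4% and 27.0% of all genes, and the medians were -0.14 and -0.32, beside -0.02 and 0.04 over all genes. Members with a log2 ratio below -0.5 in both kinds of library were 9 in ΔPod (Bag3, Dnaja1, Dnaja4, Dnajc22, Hsp90aa1, Hsp90ab1, Hspa8, Hspd1 and Hsph1) and 9 in K2A (Dnaja1, Dnaja4, Dnajb11, Dnajc13, Dnajc22, Hsp90aa1, Hsp90ab1, Hsp90b1 and Hspd1), beside 5.0% and 5.32% of all genes. Dnaja1 was at -0.99 and -0.80 in ΔPod and at -0.79 and -0.83 in K2A, long-transcript libraries first. Hsp90ab1 was at -0.60 and -0.89 in ΔPod and at -0.77 and -0.59 in K2A. Hspe1 turned round between the kinds in ΔPod, at -0.69 and 1.01. Bag2, Hspa1b and Hspa2 were above 0.5 in both kinds in K2A, 3 members or 4.29%, beside 5.48% of all genes. The split of counts between Hspa1a and Hspa1b is uncertain, and Hspa1a was at 0.21 and 0.69 in K2A. Fitted alone with edgeR, the long-transcript libraries gave calls for 18 members in ΔPod, 24 in K2A and 8 in K2A against ΔPod, beside 22.8%, 31.0% and 9.2% of all genes, with a lone library for each mutant that is assumed to vary like the pair of WT libraries. The short-transcript libraries alone gave 0 in each comparison, beside 0.244%, 0.143% and 0.0% of all genes. At an unadjusted edgeR p under 0.05 these libraries gave 22 members in ΔPod, 15 in K2A and 5 in K2A against ΔPod, beside 17.4%, 12.2% and 7.92% of all genes.

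When the slope of each library on transcript length was added to the edgeR model, 18 members passed in ΔPod, 14 of them lower, and 19 passed in K2A, 17 of them lower. Over all genes 14.1% passed in ΔPod, 7.99% lower, and 15.8% in K2A, 8.34% lower. In K2A against ΔPod 0 members passed with the slope, beside 0.177% of all genes. As shares of the 70 members, the lower calls were 20.0% and 24.3%. The lower calls in ΔPod were Bag3, Dnaja1, Dnaja4, Dnajb11, Dnajc2, Dnajc11, Dnajc12, Dnajc22, Hsp90aa1, Hsp90ab1, Hspa4, Hspa8, Hspd1 and Hsph1. In K2A they were Dnaja1, Dnaja4, Dnajb11, Dnajc2, Dnajc12, Dnajc13, Dnajc19, Dnajc21, Dnajc22, Dnajc25, Hsp90aa1, Hsp90ab1, Hsp90b1, Hspa4, Hspa9, Hspd1 and Hspe1. With this term Hsp90ab1 was at -0.73 (adjusted p 0.0166) in ΔPod and -0.61 (adjusted p 0.0279) in K2A, and Dnaja1 at -0.90 (adjusted p 0.0028) and -0.84 (adjusted p 0.00288). The slope was computed from the same counts, and with a class term in place of the slope only Dnaja1 and Dnaja4 passed in ΔPod and Dnaja1, Dnaja4 and Dnajc22 in K2A, beside 3.96% and 4.09% of all genes.

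The wider chaperone pathway was read from 34 genes outside the symbol rule, among them HSF1, the HSP90 co-chaperones and the subunits of the cytosolic chaperonin. All were tested, 0 passed in any comparison by edgeR, and 25 were below 0 in each mutant, with medians of -0.37 in ΔPod and -0.10 in K2A. At an unadjusted p under 0.05 there were 5 in ΔPod and 3 in K2A, which is near the background of 13.8% and 10.6% of all genes. Wholly below WT were 12 in ΔPod and 7 in K2A, beside 9.47% and 9.18% of all genes, and wholly above WT were 0 in ΔPod and 1 in K2A, beside 8.73% and 11.0%. Hsf1 was at 4.38, 13.1 and 29.4 CPM in ΔPod, 18.3, 20.7 and 23.9 in K2A and 28.1, 24.9 and 28.3 in WT. Sil1, an exchange factor for Hspa5, was at 31.3, 43.6 and 61.9 CPM in ΔPod, 45.1, 44.9 and 51.0 in K2A and 85.0, 82.0 and 81.5 in WT, wholly below WT in both mutants with adjusted p of 0.278 and 0.327. Ahsa2, a relative of the HSP90 activator Ahsa1, was at 11.7, 15.7 and 19.6 CPM in ΔPod, 12.1, 14.0 and 16.2 in K2A and 22.1, 33.2 and 33.8 in WT, with adjusted p of 0.272 and 0.204. Fkbp5, an HSP90 co-chaperone that glucocorticoids induce, was at 4.12, 9.56 and 34.0 CPM in ΔPod, 24.7, 30.8 and 199 in K2A and 90.4, 71.9 and 113 in WT, wholly below WT in ΔPod. Cryab, a small heat shock protein outside the rule, was at 90.1, 118 and 51.0 CPM in ΔPod, 331, 422 and 82.7 in K2A and 127, 124 and 84.9 in WT, and like Hspb1 it was highest in K2A 1 and K2A 2.

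The 6 members with too few counts to test were Dnajb7, Dnajb8, Dnajb13, Hspa1l, Hspb3 and Hspb9. Dnajb8 and Hspb3 had 0 counts in every library, which allows up to 3 counts per library from counting error alone, and the highest count of the other 4 in any library was 20, for Hspb9 in ΔPod 1. Hspa1l, the testis relative of Hspa1a, had 3, 10 and 17 counts in ΔPod, 14, 7 and 8 in K2A and 1, 0 and 5 in WT.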

How the data were processed

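Poly(A) RNA from mouse kidney had been sequenced from ScriptSeq v2 libraries, which mark the strand, per the labels' protocols. The authors deposited whole-number counts per gene symbol in 2 tables, each with WT and 1 mutant group. The submitters' processing notes list Trim Galore 0.6.3, STAR 2.7.3a, featureCounts 2.0.1, DESeq2 1.30.0 and mm10. The strand setting and the handling of reads with several matches are not given in the sources used here, so counts of overlapping genes and near-identical copies are uncertain. Of 52163 symbols in both tables, 3 with differing WT counts were left out.

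All 9 libraries were fitted with edgeR 4.0.16 in R 4.3.3 with a group term, filterByExpr and TMM scaling. The quasi-likelihood test was adjusted by Benjamini-Hochberg over 18067 genes at 0.05, after a check of the script on simulated data. CPM are counts over the scaled totals of tested genes, and within-class ratios add 0.5 CPM. An exact permutation test of 3 against 3 cannot go below 0.1 and was not used. Exonic length is the union of exons in GENCODE vM21, known for 97.4% of tested genes. A library's length class is the sign of its slope of log2 CPM on log2 length. The alternatives were other scaling (RLE, library size alone), DESeq2 1.42.0, no filter, only the libraries compared, a replicate block, terms for length, each length class alone and each library left out. The members, lists and alternatives were chosen with earlier results of these data known. Named genes were 17 central chaperones, the 5 members with the smallest p in each comparison, up to 10 without overlap between groups and the 5 highest per kilobase; others are named to complete a count or a set, after their values were seen.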

Additional observations from a re-analysis of the deposited data

How the results depend on the processing

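The count of members past the threshold was 0 in all 3 comparisons with RLE scaling, library size alone, no filter, only the 6 libraries compared and the short-transcript libraries alone, and it was 0 to 0 when each library was left out in turn. It was 2 in ΔPod and 3 in K2A with DESeq2, 18 and 19 with the length slope, and 2 and 3 with the length class as a term. With only the long-transcript libraries it was 18 in ΔPod, 24 in K2A and 8 in K2A against ΔPod. The cause of the higher counts was not tested. Among called values, Bag1 reversed with only the long-transcript libraries, to -0.41 in ΔPod and -0.44 in K2A. Hspe1 reversed to -0.68 in ΔPod and -0.77 in K2A with these libraries, and to -0.66 in K2A with the length slope. For the named genes, 1506 values under an alternative kept their direction and side of the threshold or moved by less than their error, 77 moved further without a call, and 65 passed where they had not. The members' median ranged from -0.58 to -0.19 in ΔPod, -0.36 to -0.12 in K2A and -0.19 to 0.15 in K2A against ΔPod. Of all genes 178 passed in ΔPod and 153 in K2A, and 23 to 411 and 3 to 291 with a library left out.

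With the replicate block 0 members passed in each comparison, and 270, 232 and 0 of all genes. Whether same-numbered samples pair could not be told. ΔPod 1 and WT 1 deviated in opposite directions (r = -0.62), as did K2A 1 and WT 1 (r = -0.54). ΔPod 3 and K2A 3 deviated together (r = 0.85), as did ΔPod 1 and K2A 1 (r = 0.76). Between groups, r was positive for samples of the same length class and negative for samples of different classes, whatever their numbers. Not every sample was closest to its own number. Depth limits mainly the members under 10 CPM and the 6 that were not tested.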
